A study of Homo sapiens with 12 samples.

Results

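MEIS1, MEIS2, MEIS3, PBX2, PBX3, PBX4, PKNOX1 and PKNOX2 encode transcription factors of the TALE class, named for a loop extension in their homeodomain, that act as partners of HOX proteins. These 8 genes were chosen by name, with no measured value in the rule, and all 8 were found among the 19923 protein-coding genes of the deposited counts. RNA was sequenced from cells of NGP and SK-N-BE2, both of them cell lines from MYCN-amplified neuroblastomas, whose genotype the labels give as WT. SK-N-BE2 cells received DMSO or 12 µM STM2457 and NGP cells DMSO or 1 µM STM2457, each for 6 days, with 3 libraries in each of the 4 groups. STM2457 is an inhibitor of METTL3, the catalytic subunit of the enzyme that writes N6-methyladenosine (m6A) on messenger RNA. Each line stands for 1 tumour, and the labels do not say whether replicates were separate cultures, so a p-value measures only the spread between libraries. The dose and the sequencing run named in the file headers both differed between the lines, so effects of run, dose and line cannot be told apart wherever the lines are compared.

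HOX proteins give cells their position along the body axis but bind DNA with little specificity alone. PBX proteins bind DNA beside them and raise that specificity. MEIS and PKNOX (also called PREP) proteins bind the same face of PBX, hold it in the nucleus and can form complexes of HOX, PBX and a MEIS or PKNOX protein on DNA. In the developing embryo these genes act in the neural crest, hindbrain and limbs, retinoic acid is a regulator of several of them, and MEIS1 with HOXA9 is known as a driver of acute myeloid leukaemia.

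The sequences shown here belong to MEIS1 and MEIS3, the members that were called higher with STM2457. METTL3 methylates the A of a short consensus whose common form is GGACT in DNA letters, and every GGACT in the annotated canonical transcript (GENCODE 44, GRCh38) is given in capitals with 10 bases on each side, 5′ to 3′ on the transcript's strand. MEIS1 holds 4, in exons 1, 9 and 13 of 13, at chr2:66435181-66435185 and chr2:66435348-66435352 in the 5′ UTR, chr2:66547991-66547995 in the coding part and chr2:66572443-66572447 in the 3′ UTR, all on the plus strand.
MEIS1 5′ UTR, exon 1: acacgcacggGGACTgcaagcgggc
MEIS1 5′ UTR, exon 1: ttaggaattaGGACTgattcaaggg
MEIS1 coding, exon 9: acaagacacgGGACTcaccatcctt
MEIS1 3′ UTR, exon 13: tgtgcaaaaaGGACTggaaaaatga
MEIS3 holds 3, all in its coding part on the minus strand, at chr19:47414758-47414762 and chr19:47414749-47414753 in exon 6 and chr19:47409191-47409195 in exon 8 of 13.
MEIS3 coding, exon 6: gctgcagggaGGACTtcgaggacta
MEIS3 coding, exon 6: aggacttcgaGGACTacccagcctc
MEIS3 coding, exon 8: gagaagatgaGGACTtggaccagga
Per kilobase of transcript, GGACT occurred 0.876 times in MEIS1 and 1.48 times in MEIS3, against a median of 0.923 and quartiles of 0.532 and 1.40 over 18999 protein-coding genes. The other members ranged from 0 in PBX3, whose 2840-base transcript holds none, to 1.65 in PKNOX2. The letters are a description only, since m6A was not measured here.

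The promoters of MEIS1 and MEIS3 are shown because both genes rose together in SK-N-BE2. Each is the 250 bases before an annotated start, from RefSeq (GRCh38.p14), in lower case because none of the motifs searched for was found in it. The MEIS1 window is chr2:66434875-66435124 on the plus strand and the MEIS3 window, before the nearer of its 2 RefSeq starts, is chr19:47419528-47419777 on the minus strand.
MEIS1 promoter: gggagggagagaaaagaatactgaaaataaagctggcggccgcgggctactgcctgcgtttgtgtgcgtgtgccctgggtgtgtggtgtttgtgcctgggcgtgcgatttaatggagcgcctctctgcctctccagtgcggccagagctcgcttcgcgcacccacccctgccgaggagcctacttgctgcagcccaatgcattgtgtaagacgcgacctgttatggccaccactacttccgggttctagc
MEIS3 promoter: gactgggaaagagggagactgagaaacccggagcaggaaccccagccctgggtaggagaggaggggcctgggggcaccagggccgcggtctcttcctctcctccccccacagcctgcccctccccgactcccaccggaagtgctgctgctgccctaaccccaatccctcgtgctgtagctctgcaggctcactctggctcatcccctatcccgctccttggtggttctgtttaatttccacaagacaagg
The motifs were TGACAG (the MEIS and PKNOX core), TGATNNAT (a PBX and HOX form) and CACGTG (the E-box bound by MYC proteins), on both strands, and no match overlapped another. Of 35116 RefSeq promoters of this length, 13.0%, 6.47% and 6.34% held them. Of the 7 members with an entry, PBX3 held TGACAG and 1 of the MEIS2 promoters held TGATNNAT.

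Libraries held 47242379 to 58159937 counted reads. In NGP the DMSO replicate 1 stood apart, with a spread of 0.255 (SD of log2 deviations from its group mean over genes) against 0.0880 to 0.185 in the other 11 libraries. The RNA of METTL3 itself was 54.0 ± 3.26 CPM (reads per 1e6 counted reads; SD, n = 3) in DMSO and 79.5 ± 1.43 with STM2457 in SK-N-BE2, against 40.4 ± 3.59 and 77.7 ± 2.46 in NGP. It was called higher in both lines (adjusted p = 0.000106 and 3e-04, edgeR's quasi-likelihood test with Benjamini-Hochberg adjustment). Of 10 neuroblastoma markers, 9 were at 1 CPM or more in each group. TH, the enzyme that starts catecholamine synthesis, was at 0.512 CPM in NGP DMSO against 234 in SK-N-BE2 DMSO. The summed level of 10 markers of other cell types was 9.86 to 13.6 CPM in SK-N-BE2 DMSO and 20.9 to 22.2 with STM2457, and 46.3 to 48.8 and 140 to 151 CPM in NGP. COL1A1, a collagen of mesenchymal cells, made up most of these sums (8.42, 18.4, 29.8 and 124 CPM). PRRX1, on the same list, was at 15.7 CPM in NGP DMSO and 18.5 with STM2457, against 0.0268 and 0.0254 in SK-N-BE2. KRT5 had no read in any library, and PTPRC and PECAM1 had none in NGP. The part of those RNAs in the results that follow was not tested, and in bulk RNA fewer cells of a type and less RNA per cell cannot be told apart.

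MEIS1 RNA was higher with STM2457 in both lines, MEIS3 RNA was higher in SK-N-BE2, and PKNOX1 RNA was lower in both. PKNOX2 was lower in NGP and too low to test in SK-N-BE2. In SK-N-BE2, 3 of the 7 members tested passed an adjusted p of 0.05, 2 higher and 1 lower, while 54.7% of all genes tested passed (26.9% higher and 27.8% lower). In NGP, 3 of 8 passed, 1 higher and 2 lower, against 41.7% of all genes (19.4% higher and 22.2% lower). The members' share of calls was thus 42.9% and 37.5%, below that of all genes in both lines, and their median log2 change was 0.12 and 0.10 against -0.02 and -0.03 over all genes. No test was made on the 8 genes as a set.

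**Figure D1:**
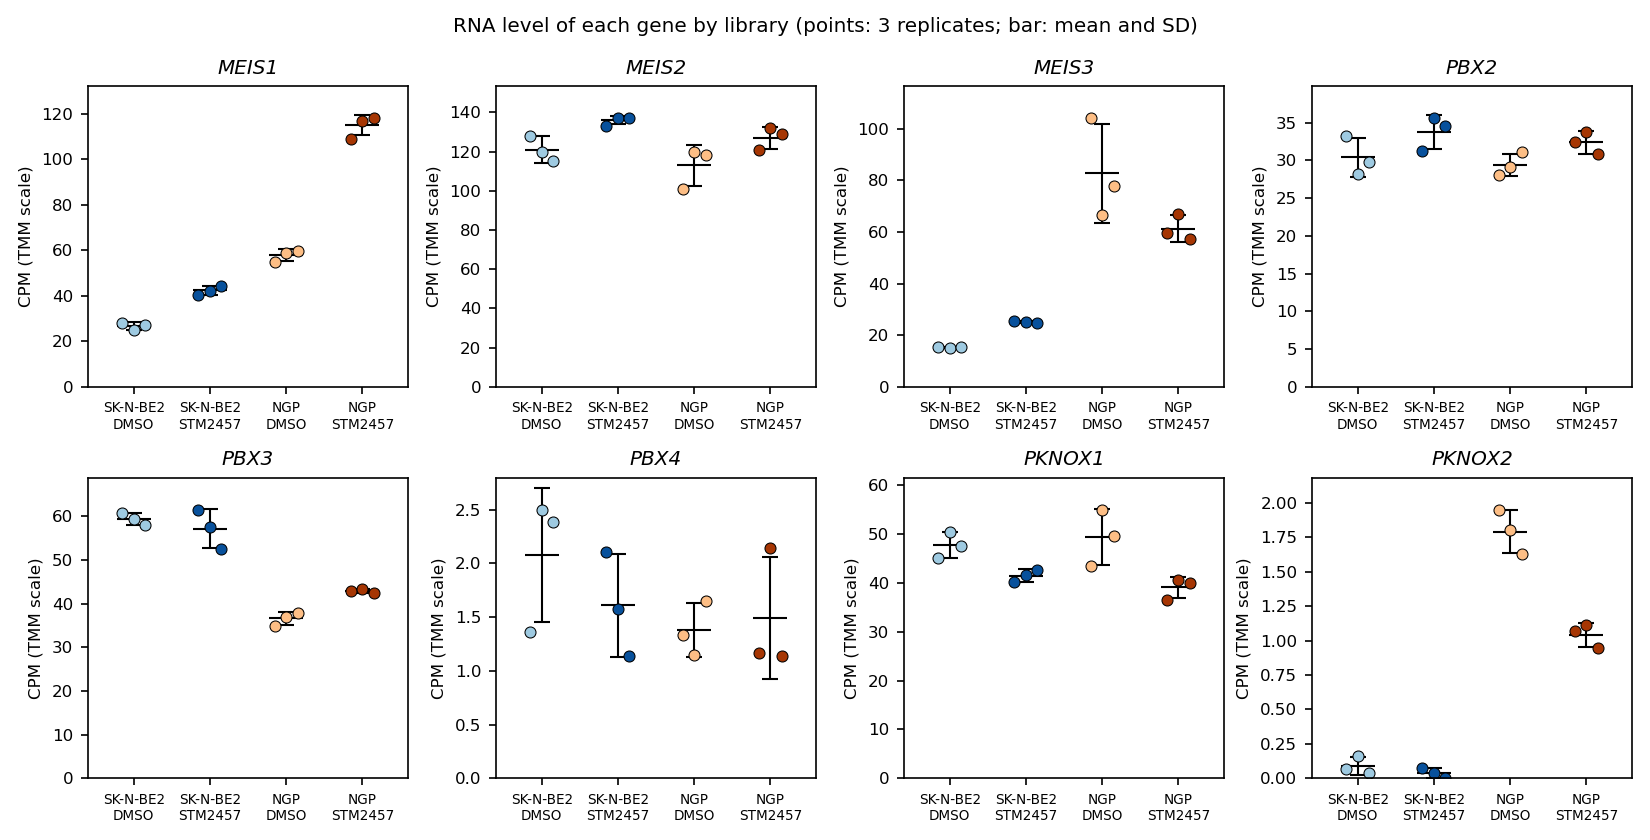
RNA level of each of the 8 genes, 1 panel a gene, in CPM on the y axis (each panel has its own scale) for the 4 groups on the x axis; points are the 3 libraries of a group and the bar is their mean with SD. MEIS1 climbs from 24.9 to 28.2 CPM in SK-N-BE2 DMSO to 109 to 118 in NGP with STM2457, while PBX2 lies between 28.1 and 35.6 in all 12 libraries.

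MEIS1, a MEIS-family factor of blood and neural development, lies at chr2:66433452-66573869 on the plus strand (GRCh38). In the SK-N-BE2 DMSO libraries its level was 28.2, 24.9 and 27.0 CPM, and with STM2457 it was 40.4, 42.3 and 44.5 CPM. Every treated library lay above every control library. The change was a log2 of 0.63 (SE 0.09, 95% interval 0.43 to 0.82), a 1.55-fold rise, with an adjusted p of 6.38e-05 (edgeR). In NGP the level was 55.0, 58.7 and 59.8 CPM with DMSO and 109, 117 and 118 CPM with STM2457. Here too the groups were wholly apart, and the rise was a log2 of 0.96 (SE 0.09, 95% interval 0.75 to 1.17), 1.95-fold, with an adjusted p of 0.000124. Each call held under all 15 alternatives run for each, with log2 changes of 0.58 to 0.67 in SK-N-BE2 and 0.92 to 0.99 in NGP. The difference between the lines' responses was -0.32 (SK-N-BE2 minus NGP, SE 0.12, 95% interval -0.57 to -0.07) and missed the threshold at an adjusted p of 0.0539; it passed under 7 of 20 alternatives, with adjusted p from 0.0143 to 0.136 over all of them. Of the exon length counted for MEIS1, 13.3% is shared with noncoding genes on the other strand, most of it with MEIS1-AS2. The counting used no strand option, so reads from those genes cannot be told apart from MEIS1 reads there.

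MEIS3, the family member known from hindbrain patterning, lies at chr19:47403124-47419527 on the minus strand. Its level in SK-N-BE2 was 15.3, 15.1 and 15.5 CPM with DMSO and 25.5, 25 and 24.8 CPM with STM2457. The replicates lay within 1 CPM of each other and the groups were far apart. The log2 change was 0.68 (SE 0.09, 95% interval 0.48 to 0.87), a 1.60-fold rise, with an adjusted p of 3.71e-05 (edgeR), and it held under all 15 alternatives. NGP cells held more MEIS3 RNA and showed no rise: 104, 66.6 and 77.6 CPM with DMSO and 59.6, 67.1 and 57.2 CPM with STM2457. DMSO replicate 1, the library that stood apart over all genes, was the highest by far, and the groups overlapped by 1 library on each side. The NGP change was -0.46 (SE 0.16, 95% interval -0.83 to -0.09) with an adjusted p of 0.0514. Without DMSO replicate 1 it was -0.26 and without DMSO replicate 2 it was -0.59, and either omission brought it past the threshold (adjusted p of 0.0346 and 0.015).

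MEIS3 was the only member whose response differed between the lines by the test of the difference: 1 of 8 members passed, against 30.9% of all genes tested. The SK-N-BE2 change exceeded the NGP change by a log2 of 1.15 (SE 0.19, 95% interval 0.74 to 1.55, adjusted p = 0.000437, edgeR). That call held under all 20 alternatives, with differences of 0.93 to 1.28. Pseudogene copies, MEIS3P1 and MEIS3P2 on chromosome 17, are similar to it in sequence, and reads that map equally well to both were not counted.

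MEIS2, a regulator of neural crest and limb development, lies at chr15:36889204-37101299 on the minus strand. In SK-N-BE2 its level was 128, 120 and 115 CPM with DMSO and 133, 137 and 137 CPM with STM2457. In NGP it was 101, 120 and 118 CPM with DMSO and 121, 132 and 129 CPM with STM2457. In both lines the treated libraries lay above the control libraries, but by little, and neither change passed the test. The log2 changes were 0.13 (95% interval -0.04 to 0.30, adjusted p = 0.173) and 0.14 (95% interval -0.09 to 0.38, adjusted p = 0.295), and their difference was 0.00 with an interval of -0.26 to 0.26. Groups without overlap were common in these data: 62.2% of all genes tested in SK-N-BE2 and 54.7% in NGP had them.

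**Figure D2:**
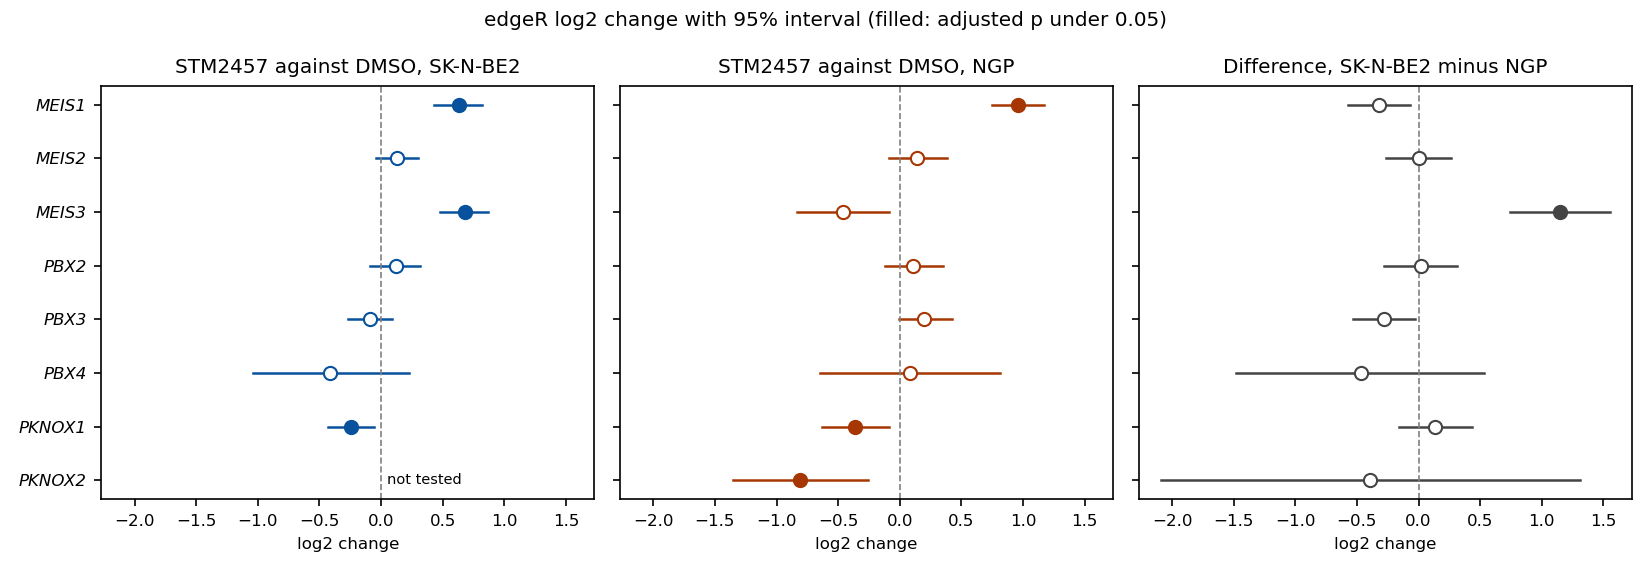
Fitted log2 change (x axis) of each gene (y axis) with STM2457 in SK-N-BE2, in NGP and as the difference between both; points are edgeR estimates from 3 against 3 libraries, lines are 95% intervals and filled points passed an adjusted p of 0.05. MEIS1 is right of 0 in both lines (0.63 and 0.96), and MEIS3 is at 0.68 in SK-N-BE2 and -0.46 in NGP.

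Of the PBX genes, edgeR called 0 in either line, with 0 at an unadjusted p under 0.05 and 0 by DESeq2. PBX3, the PBX member often raised together with HOXA9 in leukaemia, lies at chr9:125747345-125967377 on the plus strand. In SK-N-BE2 it was at 60.7, 59.4 and 57.9 CPM with DMSO and 61.5, 57.6 and 52.6 CPM with STM2457, with overlapping groups. In NGP it was at 34.9, 37.0 and 37.8 CPM with DMSO and 42.8, 43.3 and 42.5 CPM with STM2457, where all treated libraries were higher. The changes were -0.09 (95% interval -0.27 to 0.09, adjusted p = 0.382) and 0.20 (95% interval -0.01 to 0.42, adjusted p = 0.121). Fitted over all 12 libraries, the NGP change was 0.23 and passed with an adjusted p of 0.0366. The difference between the lines was -0.28 (95% interval -0.53 to -0.03, adjusted p = 0.0848).

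PBX2, a broadly expressed family member, lies within the major histocompatibility region at chr6:32184733-32190202 on the minus strand. It was at 33.3, 28.2 and 29.8 CPM in SK-N-BE2 DMSO and at 31.3, 35.6 and 34.6 CPM with STM2457. In NGP it was at 28.1, 29.1 and 31.1 CPM with DMSO and at 32.5, 33.8 and 30.8 CPM with STM2457. Within each line the groups overlapped, and the changes were 0.12 (95% interval -0.09 to 0.32) and 0.11 (95% interval -0.12 to 0.35). A noncoding gene on the same strand covers 15.2% of its exon length and a copy, PBX2P1, lies on chromosome 3, so part of its count is uncertain.

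PBX4, a member best known from the testis, lies at chr19:19561707-19618693 on the minus strand and was low everywhere. It had 60 to 125 reads in the SK-N-BE2 libraries and 55 to 100 in the NGP libraries, or 1.14 to 2.50 CPM over all 12. The intervals of its changes were wide, -1.04 to 0.23 around -0.41 in SK-N-BE2 and -0.65 to 0.81 around 0.08 in NGP, so neither a change within those bounds nor its absence was shown.

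PKNOX1, the widely expressed PREP1, lies at chr21:42974510-43033931 on the plus strand and fell in both lines. In SK-N-BE2 it was at 45.2, 50.5 and 47.5 CPM with DMSO and 40.1, 41.7 and 42.6 CPM with STM2457. In NGP it was at 43.5, 55.0 and 49.7 CPM with DMSO and 36.6, 40.6 and 40 CPM with STM2457. All 3 treated libraries of each line were below its 3 control libraries, by small margins. The log2 changes were -0.24 (SE 0.09, adjusted p = 0.0277) and -0.36 (SE 0.12, adjusted p = 0.0367) by edgeR, and their difference was 0.13 with an interval of -0.16 to 0.43. Both calls were close to the threshold. Leaving out DMSO replicate 2 or any of the 3 STM2457 replicates ended the call in SK-N-BE2 (adjusted p of 0.0597 to 0.112), and the NGP call ended without DMSO replicate 2 or 3 or any of its STM2457 replicates (adjusted p of up to 0.15).

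PKNOX2, or PREP2, lies at chr11:125164687-125433389 on the plus strand and was measurable in NGP. Its reads there were 98, 92 and 84 with DMSO (1.95, 1.80 and 1.63 CPM) and 50, 52 and 48 with STM2457 (1.07, 1.11 and 0.947 CPM). Every treated NGP library lay below every control library. The log2 change was -0.81 (SE 0.24, 95% interval -1.35 to -0.26), to 0.572 of the control level, with an adjusted p of 0.0252 (edgeR). The call was lost when any library other than DMSO replicate 1 was left out (adjusted p of 0.0502 to 0.0908). In SK-N-BE2 it had 4, 8 and 2 reads with DMSO and 4, 2 and 0 with STM2457, which did not pass the filter on low counts.

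**Figure D3:**
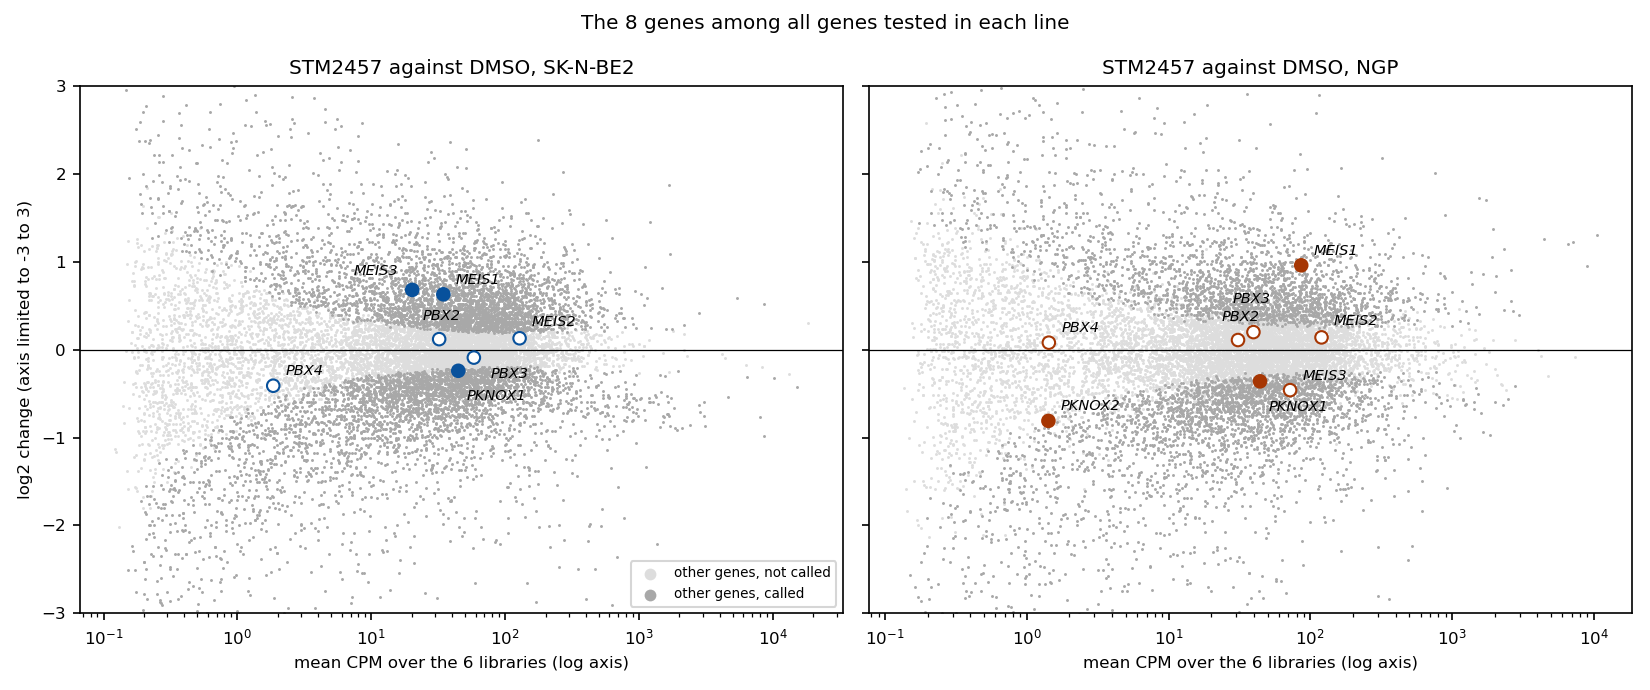
Log2 change with STM2457 (y axis, limited to -3 to 3) against mean CPM over the 6 libraries of a line (x axis, log scale) for all genes tested, with called genes in darker grey and the 8 genes in colour (filled where called). MEIS1 at 0.96 in NGP lies farther from 0 than the other members do in either line, and many other genes changed more, in both directions.

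The lines themselves differed in these genes before treatment. With DMSO, 4 of the 8 members differed between SK-N-BE2 and NGP, 1 higher and 3 lower in SK-N-BE2, against 71.1% of all genes tested (35.7% higher and 35.4% lower). MEIS1 was lower in SK-N-BE2 by a log2 of -1.12 (SE 0.08, adjusted p = 2.62e-08), MEIS3 by -2.43 (SE 0.14, adjusted p = 1.19e-09) and PKNOX2, with 14 reads against 274, by -4.30 (SE 0.50, adjusted p = 2.26e-06). PBX3 was higher in SK-N-BE2 by 0.70 (SE 0.08, adjusted p = 3.38e-06). The remaining 4 had intervals that held 0: MEIS2 at 0.09 (-0.09 to 0.28), PBX2 at 0.05 (-0.16 to 0.26), PBX4 at 0.59 (-0.12 to 1.30) and PKNOX1 at -0.05 (-0.26 to 0.16). PBX4 passed at 0.86 (adjusted p = 0.0349) once SK-N-BE2 DMSO replicate 1 was left out.

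With STM2457 the same count, 4 of 8, passed in the comparison of lines, against 65.9% of all genes (33.5% higher and 32.5% lower). The genes were again MEIS1 (-1.44), MEIS3 (-1.29) and PKNOX2 (-4.69), lower in SK-N-BE2, and PBX3 (0.42), higher there. The gap in MEIS3 was narrower than with DMSO, by the difference of responses given above. Both SK-N-BE2 groups were below both NGP groups in MEIS3, and the NGP groups overlapped. For MEIS1 the order was SK-N-BE2 DMSO, SK-N-BE2 with STM2457, NGP DMSO and NGP with STM2457, with no overlap between neighbours.

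Levels of different genes were compared as CPM per kilobase of the exon length deposited with the counts, which merges all transcripts of a gene. In SK-N-BE2 DMSO the highest were PBX3 at 12.1 ± 0.284 (SD, n = 3) and MEIS2 at 11.2 ± 0.641, followed by PBX2 at 6.97 ± 0.592 and PKNOX1 at 6.27 ± 0.349. The libraries of PBX3 and MEIS2 overlapped, as did those of PBX2 and PKNOX1. MEIS3 at 2.99 ± 0.0419 and MEIS1 at 2.44 ± 0.154 were lower, and PBX4 at 0.894 ± 0.268 and PKNOX2 at 0.0137 ± 0.00975 lowest. In NGP DMSO the order began with MEIS3 at 16.1 ± 3.73 and MEIS2 at 10.5 ± 0.963. PBX3 at 7.46 ± 0.296, PBX2 at 6.74 ± 0.346 and PKNOX1 at 6.48 ± 0.758 followed, and the libraries of PBX2 overlapped with those of both others. MEIS1 was at 5.29 ± 0.230, PBX4 at 0.592 ± 0.109 and PKNOX2 at 0.274 ± 0.0239. With STM2457, MEIS1 in NGP was at 10.5 ± 0.409 per kilobase, between PBX3 at 8.74 ± 0.0836 and MEIS2 at 11.8 ± 0.516.

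Summed per kilobase, the MEIS genes came to 16.6 ± 0.721 CPM with DMSO and 21.3 ± 0.293 with STM2457 in SK-N-BE2, and to 31.9 ± 2.60 and 34.2 ± 1.62 in NGP. The NGP sums differed by less than their SDs together, while the make-up of the sum shifted. MEIS1 was 14.5, 18.2 and 17.3% of the NGP sum with DMSO and 30.5, 29.7 and 31.8% with STM2457, and MEIS3 was 58.4, 44.1 and 48.0% and then 35.4, 36.4 and 33%. In SK-N-BE2 MEIS2 was the main MEIS RNA, at 67.3 ± 1.26% with DMSO and 58.8 ± 0.263% with STM2457. The PBX sum was 20 ± 0.537 and 20.1 ± 0.837 in SK-N-BE2, against 14.8 ± 0.699 and 16.8 ± 0.643 in NGP. The PKNOX sum, of which PKNOX1 made up 95.9 to 99.9% on group means, was 6.28 ± 0.357 and 5.45 ± 0.161, and 6.76 ± 0.746 and 5.29 ± 0.278. These sums and shares are given with no test.

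**Figure D4:**
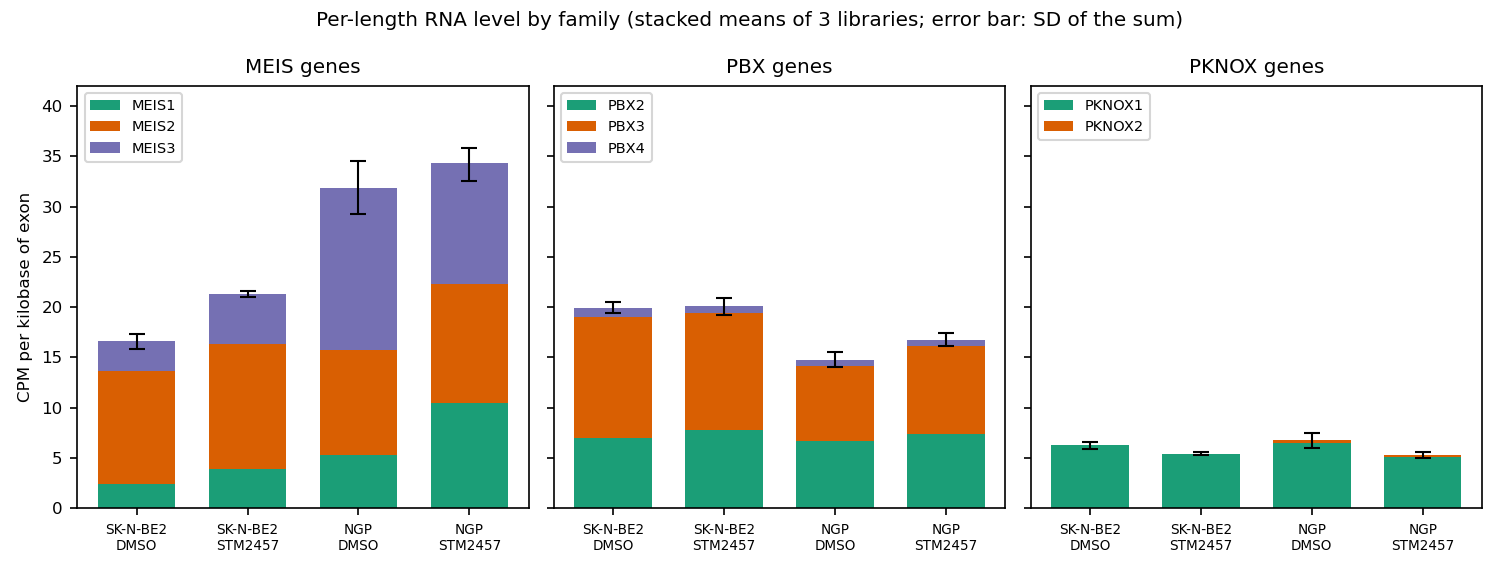
Stacked mean levels in CPM per kilobase of exon (y axis) of the MEIS, PBX and PKNOX genes in the 4 groups (x axis); error bars are the SD of the summed level over 3 libraries. In NGP the MEIS sum is 31.9 with DMSO and 34.2 with STM2457, with a larger MEIS1 part and a smaller MEIS3 part.

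The genes around these cofactors were described by lists of HOX genes, other TALE homeobox genes, co-regulators and retinoid genes, to be read against the shares called and the medians given for all genes. Of 39 HOX genes, the partners in DNA binding, 14 were tested in SK-N-BE2, with 2 higher, 6 lower and a median log2 change of -0.27. In NGP 26 were tested, with 3 higher, 4 lower and a median of 0.10. HOXD8 fell in both, from 34.0 ± 4.38 to 17.0 ± 1.47 CPM in SK-N-BE2 (log2 -1.04, adjusted p = 7.17e-06) and from 37.8 ± 3.6 to 19.8 ± 2.07 CPM in NGP (-0.96, adjusted p = 0.000574). HOXD9 went from 56.5 ± 12.6 to 23.6 ± 2.40 CPM in SK-N-BE2 (-1.30, adjusted p = 5.38e-06) and HOXD1 from 3 ± 0.135 to 1.24 ± 0.245 CPM (-1.31, adjusted p = 0.00026). The largest NGP changes were rises of low genes, HOXA13 from 0.457 ± 0.159 to 1.47 ± 0.237 CPM (1.65, adjusted p = 0.00575) and HOXA9 from 0.406 ± 0.0639 to 1.2 ± 0.223 CPM (1.53, adjusted p = 0.00566).

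Among 10 other TALE genes, of the IRX, TGIF and MKX groups, 5 were tested in each line. In SK-N-BE2 4 were lower and 0 higher (0 also at an unadjusted p under 0.05 and by DESeq2), with a median of -1.03. IRX6 fell from 5.06 ± 0.593 to 2.16 ± 0.372 CPM (-1.26, adjusted p = 9.35e-05), and IRX3 and IRX5, Iroquois genes of neural and limb patterning, by -1.21 and -1.03 (adjusted p = 0.00275 and 0.000147). The other was TGIF1, a repressor of retinoid and TGF-beta signalling, at -0.35 (adjusted p = 0.0082), named after its value was seen. In NGP edgeR called 0 of 5, with 0 at an unadjusted p under 0.05 and 0 by DESeq2. The difference between lines was called for 0 of 6 by edgeR (2 lower at an unadjusted p under 0.05, 0 by DESeq2), so a different response of this list in the lines was not shown.

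PBXIP1, which binds PBX proteins and keeps them from acting with HOX proteins on DNA, rose in both lines. It went from 11.3 ± 0.926 to 20.3 ± 0.768 CPM in SK-N-BE2 (0.81, SE 0.11, adjusted p = 2.8e-05) and from 12.1 ± 3.44 to 31.6 ± 1.52 CPM in NGP (1.36, SE 0.19, adjusted p = 0.00079). Over the 14 co-regulators, all tested, 2 were higher and 3 lower in SK-N-BE2 (median -0.09) and 2 higher and 5 lower in NGP (median -0.12). CRTC1, a CREB coactivator, fell from 53.3 ± 10.8 to 34.9 ± 1.83 CPM in SK-N-BE2 (-0.65, adjusted p = 0.000611), and MEN1, which encodes menin, from 85.7 ± 10.1 to 68.5 ± 3.58 CPM (-0.36, adjusted p = 0.00525). CRTC3 fell from 62.1 ± 8.19 to 41.4 ± 1.75 CPM in NGP (-0.61, adjusted p = 0.00461).

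Retinoid genes, which make, carry, break down or sense the retinoic acid that controls many MEIS and HOX genes, moved in both directions. In SK-N-BE2 1 of 12 was higher and 7 lower (median -0.45), and in NGP 4 of 13 were higher and 4 lower (median 0.22). The difference between lines was called for 8 of 14, 2 higher and 6 lower in SK-N-BE2. CRABP2, a retinoic acid carrier, fell from 209 ± 13.6 to 84.8 ± 7.54 CPM in SK-N-BE2 (-1.34, adjusted p = 8.46e-08) and rose from 10.0 ± 2.78 to 53.3 ± 6.90 CPM in NGP (2.39, adjusted p = 6.64e-05). DHRS3, which turns retinal back to retinol, fell in both, from 4.01 ± 0.762 to 0.228 ± 0.166 CPM (-4.16, adjusted p = 9.67e-07) and from 5.53 ± 1.53 to 1.30 ± 0.452 CPM (-2.11, adjusted p = 0.000978). STRA6, a retinol importer, fell from 322 ± 2.77 to 149 ± 3.97 CPM in SK-N-BE2 (-1.15, adjusted p = 8.13e-08), and CYP26B1, which degrades retinoic acid, from 1.80 ± 0.312 to 0.556 ± 0.0737 CPM in NGP (-1.72, adjusted p = 0.00182).

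**Figure D5:**
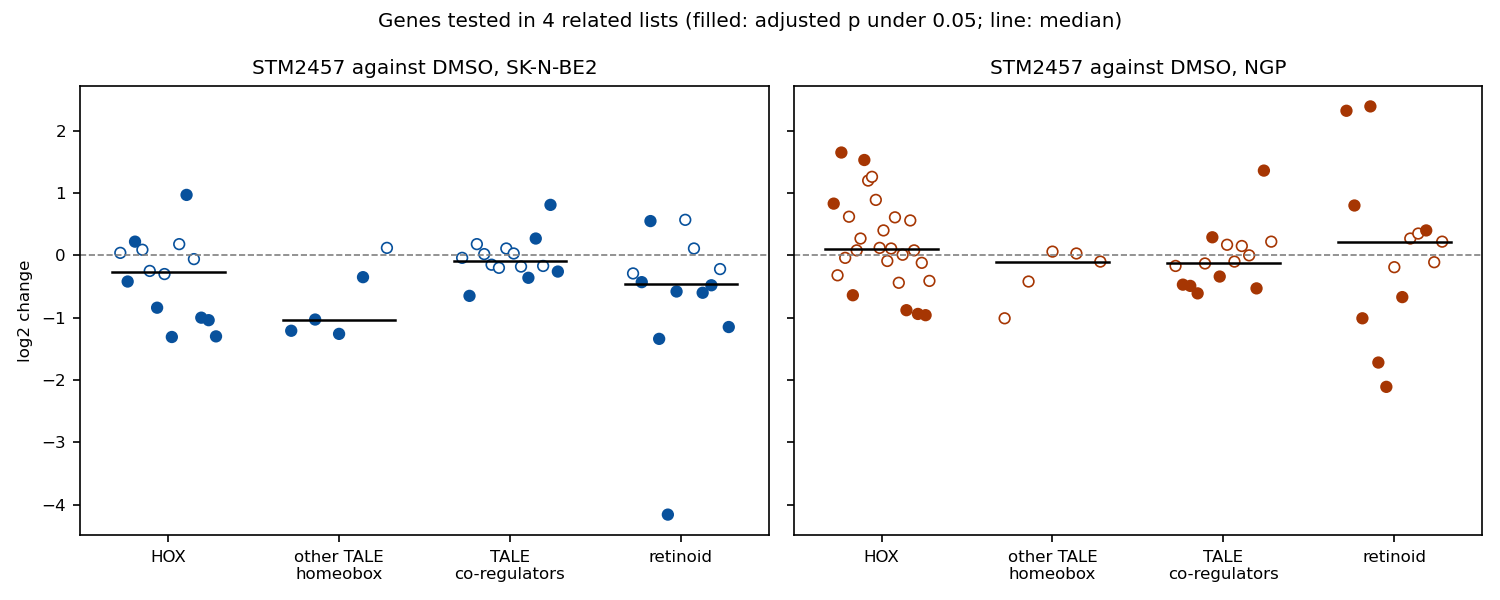
Log2 change with STM2457 (y axis) of the genes tested in 4 lists (x axis) in each line; each point is a gene, filled where the adjusted p was under 0.05, and the line is the list's median. The medians in SK-N-BE2 are -0.27, -1.03, -0.09 and -0.45 from left to right, and in NGP 0.10, -0.10, -0.12 and 0.22.

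The genes whose pattern over the 12 libraries was most like that of MEIS3 were found among 10893 genes by the root mean square difference of centred log2(CPM + 1). They were KIF1C, a kinesin, at 0.142, TCF3, an E-protein transcription factor, at 0.170 and SPHK1, a sphingosine kinase, at 0.176, where the median gene was at 0.99. MEIS3's own spread by this measure was 0.95, most of it the gap between lines. With STM2457 KIF1C had a log2 change of 0.48 in SK-N-BE2 but -0.44 in NGP, TCF3 of 0.57 and -0.10, and SPHK1 of 1.00 and -0.58. The genes were chosen for this likeness, so the values are a description.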

How the data were processed

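Each deposited file holds raw read counts per gene for 1 library. Per the file headers, the authors counted with featureCounts 2.0.5, its paired setting on, over the exons of GENCODE 33 protein-coding genes, with no strand option and no multi-mapping reads. Both reads of a pair could be counted, since 72.1 to 75.4% of counts from 1 to 20 were even. The submitters' processing notes list HISAT2 2.1.0, Trimmomatic 0.36, FastQC 0.11.5, Subread 1.5.3 and GRCh38, while the alignment files named in the headers carry a suffix of the kind STAR writes, so which aligner made these counts was not settled.

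Samples were grouped by title. Genes passing filterByExpr (minimum count 10) were scaled by TMM and tested with edgeR 4.0.16 (R 4.3.3) by quasi-likelihood, on the 6 libraries of a line for STM2457 against DMSO, and on all 12 for the difference of responses and for the lines. Genes were called at a Benjamini-Hochberg adjusted p of 0.05 over all genes tested; unadjusted counts of calls use the same threshold. CPM are on the TMM scale of all 12 libraries, so levels are relative to all counted RNA. In each list, the text names the 3 called genes with the largest change and at least 1 CPM in 1 group. A gene meeting this rule is not reported here. Alternatives were other size factors and filters, DESeq2 1.42.0, robust dispersion, halved counts, a replicate block, a joint fit and leaving out each library. The fits were tested on simulated data. The members and lists were chosen with earlier results of these data known.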

Additional observations from a re-analysis of the deposited data

Results flagged for a closer look

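The response of MEIS3 to STM2457 stood out because it differed between the lines by a test of the difference itself. The difference was a log2 of 1.15 (SK-N-BE2 minus NGP, adjusted p = 0.000437, edgeR). In SK-N-BE2 all 3 STM2457 libraries lay above all 3 DMSO libraries, as they did for 33.2% of all genes tested there. In NGP the groups overlapped. Line, dose and sequencing run cannot be told apart in this difference.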

How the results depend on the processing

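Calls of MEIS1 in both lines, of MEIS3 in SK-N-BE2 and of the MEIS3 difference held under every alternative run for them, as did the 4 members called between the lines with STM2457. The number of members called in SK-N-BE2 was 2 to 3 with a library left out. In NGP it was 3 in the main fit. A replicate block gave 1, with adjusted p of 0.0569 and 0.0585 for PKNOX1 and PKNOX2. With a library left out the number was 1 to 4. Leaving out DMSO replicate 3 or STM2457 replicate 1, 2 or 3 gave 1, which was MEIS1. The number called for the difference was 1, but 2 with DESeq2 size factors, with a filter at a mean of 1 CPM and with halved counts, 3 with upper-quartile factors and with DESeq2, and 1 to 2 with a library left out (2 without SK-N-BE2 DMSO replicate 2 or NGP DMSO replicate 1). The added genes were MEIS1 and PBX3, and the cause was not tested. In the joint fit the SK-N-BE2 call of PKNOX1 and the NGP call of PKNOX2 were lost (adjusted p = 0.105 and 0.109). MEIS3 in NGP passed without a filter (0.047) and with DESeq2 (0.0323), which raised the number called there. It also passed in the joint fit (0.015). Same-numbered deviations correlated at -0.163 to 0.142 in SK-N-BE2, where unlike numbers gave -0.401 to 0.368. In NGP they correlated at -0.223 to 0.11, against -0.256 to 0.279 for unlike numbers. With 3 libraries a group, these values cannot settle whether replicate numbers paired the libraries.

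Some values under the threshold changed sign. The PBX2 difference was -0.05 with upper-quartile factors, the PKNOX1 level with DMSO was 0.00 with upper-quartile factors and 0.03 with a replicate block, and the MEIS2 difference was 0.03 without a filter. With a library left out, PBX4 in NGP ranged from -0.25 to 0.24, its level with STM2457 from -0.12 to 0.47, the PBX2 difference from -0.05 to 0.07, the MEIS2 difference from -0.06 to 0.06, the PKNOX2 difference from -1.28 to 0.27 and the PKNOX1 level with DMSO from -0.11 to 0.04. Over all genes the NGP calls ranged from 3816 to 7897 with a library left out, against 5671. PKNOX2 in SK-N-BE2, at 0 to 8 reads a library, did not pass the filter on low counts.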

Other observations

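The HOX genes available as partners differed between the lines before treatment: of 27 tested with DMSO, 9 were higher and 15 lower in SK-N-BE2, against 71.1% of all genes called in that comparison. At 1 CPM or more were 13 of 39 in SK-N-BE2 DMSO and 18 in NGP DMSO. The following genes were picked after their values were seen. HOXA5, HOXA10 and HOXA11 had 0 reads in all 6 SK-N-BE2 libraries and were at 5.63 ± 1.10, 4.64 ± 0.11 and 6.68 ± 0.537 CPM (SD, n = 3) in NGP DMSO. HOXA7 was at 0.0255 ± 0.0442 CPM in SK-N-BE2 DMSO and 22.0 ± 2.31 in NGP DMSO, and HOXD13 at 0.981 ± 0.127 and 52.2 ± 4.56. HOXC10 went the other way, at 53.1 ± 7.92 CPM in SK-N-BE2 DMSO and 0.444 ± 0.156 in NGP DMSO.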
